A study of Mus musculus with 6 samples.

Results

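A set of 10 genes of glucose breakdown and of the response to low oxygen was followed in cultured mouse chondrocytes with and without the microRNA gene Mir34a. The set was fixed by symbol: Slc2a1, Hk2, Pfkl, Pfkp, Aldoa, Pgk1, Ldha, Vegfa, Bnip3 and Ero1l, whose current name is Ero1a. All 10 of 10 listed symbols had a row among the 10189 genes of the deposited table. KO samples came from C57BL/6 mice homozygous for a global Mir34a deletion (MiR-34a -/-, model Mir34atm1.2 Mrl) that was bred from heterozygous parents, and WT samples came from wild-type C57BL/6 mice. Both genotypes were 5 weeks old and untreated, and each had 3 samples. Chondrocytes, the cells of cartilage, were freed from pooled hip and knee cartilage with 3 mg/ml collagenase and grown to confluence in 10% serum before RNA-seq of total RNA. The sources used here do not give the oxygen level of the cultures.

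Glycolysis splits glucose into pyruvate in the cytosol, and lactate dehydrogenase turns pyruvate into lactate so that the pathway can go on without oxygen. Cartilage has no blood vessels, and chondrocytes are known for making most of their ATP by glycolysis at low oxygen. The transcription factor HIF-1, a dimer of HIF-1α and ARNT, binds a short core sequence in promoters and enhancers when prolyl hydroxylases lack oxygen, and each of the 10 genes is a known HIF-1 target in some mammalian cell. miR-34a pairs with target mRNAs mainly through bases 2 to 8 of its mature strand, the seed.

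Values are TMM-normalized CPM, read counts scaled to an effective library size. Log2 fold changes are KO against WT on the log2(CPM + 0.5) scale with their SE, and they understate the change of low genes. The libraries held 989217 to 5266617 recovered reads, and 947081 to 1772185 without Rn45s, Lars2 and Mir6236. In WT 1, 59.1% of reads lay on the ribosomal RNA precursor Rn45s. Mir34a is not among the rows, and the genotype labels were therefore not checked against the deleted gene. Tsix, which lies antisense to Xist, had 8.12 to 16.5 times the Xist level in 6 of 6 libraries, and the sources used here do not state how strand was treated in counting. All levels below are therefore uncertain as to strand. Of 19 chondrocyte markers 15 were measured, Acan and Col2a1 among them. Of 15 macrophage and leukocyte markers 15 were measured, with a summed level of 1038 to 15087 CPM in KO and 5188 to 6148 CPM in WT. In bulk RNA, fewer cells of a type and less RNA per cell cannot be told apart. The labels do not state that the 3 samples of a genotype are independent animals or cultures, and p-values then reflect the spread among these samples alone, which may be technical.

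The sequences through which these genes could respond to the missing microRNA or to HIF-1 are shown first. The mature miR-34a-5p (RefSeq, GRCm38.p6, chr4:150068473-150068494, plus strand) has 22 bases, with the seed in capitals.
miR-34a-5p: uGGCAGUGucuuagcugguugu
In the longest annotated 3′ UTR of each gene (GENCODE M21), 5 of the 10 genes held a match to positions 2 to 8, spelled CACTGCC in DNA letters. Of 9349 table genes with a 3′ UTR of at least 20 bases, 19.4% held one. The 5 matches are printed with their neighbouring bases and the match in capitals.
Aldoa: cttccagccCACTGCCaataaacaac
Pgk1: tggtggagaCACTGCCacttgctgtg
Ldha: tctgagacaCACTGCCaactgcaggc
Vegfa: ccctctgggCACTGCCtggaagaatc
Ero1l: aggtaccttCACTGCCtttgctgcac
The match of Aldoa lay at base 156 of a 3′ UTR of 185 bases, that of Ldha at base 484 of 572, that of Pgk1 at base 397 of 908, that of Vegfa at base 785 of 1865 and that of Ero1l at base 2869 of 2941. Hk2 held only matches to positions 2 to 7 (ACTGCC, at bases 1759 and 2093), as did a further site of Ero1l. Slc2a1, Pfkl, Pfkp and Bnip3 held neither. A match is a description of the letters and not a shown site.

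Promoter windows ran from 250 bases before to 50 bases after each RefSeq start (GRCm38.p6). They were searched for the HIF core ACGTG or GCGTG on both strands, which read CACGT or CACGC from the other strand. All 10 genes held a core in at least 1 window, and 12 of their 14 windows did. Of 8129 table genes with a window, 67.2% held one. Vegfa held cores only in a window inside the gene (chr17:46025114-46025413), and its window at the start of the annotated gene held none. The Aldoa windows with a core overlap, and the same core is counted in each. The core is a short and common string, and 61.2% of the 10342 windows of table genes held it. With 1 more base required (TACGTG, else the string GCGTGC, else the palindrome CACGTG, on either strand), 4 of the 10 genes held it, against 34.6% of table genes. Vegfa was 1 of these 4, through the window inside the gene. Ldha had the most, 7 core starts in its first window, where neighbouring starts of ACGTG and CACGT overlap in CACGTG. Its window is printed whole because it shows how densely the cores can lie, with every core in capitals (chr7:46845554-46845853, plus strand).
Ldha: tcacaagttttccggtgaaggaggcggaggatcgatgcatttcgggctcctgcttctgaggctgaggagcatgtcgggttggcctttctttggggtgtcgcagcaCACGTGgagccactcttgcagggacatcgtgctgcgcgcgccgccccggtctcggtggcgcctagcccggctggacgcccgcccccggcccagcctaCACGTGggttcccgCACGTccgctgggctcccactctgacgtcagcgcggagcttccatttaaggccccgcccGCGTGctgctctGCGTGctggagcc
The window of Pfkp, the gene with the smallest p of the 10, held 4 cores, all GCGTG (chr13:6648722-6649021, minus strand).
Pfkp: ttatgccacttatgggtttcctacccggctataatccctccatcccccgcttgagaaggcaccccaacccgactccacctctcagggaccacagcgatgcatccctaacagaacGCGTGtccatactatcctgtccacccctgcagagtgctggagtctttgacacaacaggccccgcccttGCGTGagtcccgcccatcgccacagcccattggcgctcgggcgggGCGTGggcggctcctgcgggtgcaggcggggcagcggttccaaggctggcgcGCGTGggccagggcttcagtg
Bnip3 (chr7:138909457-138909756, minus strand) had 5 core starts. The stretch around the one 108 bases before its start is printed beside that of Pgk1 at 150 bases before its start and that of Slc2a1 at 36.
Bnip3: gcgCACGCgccgCACGTGccaCACGCtcc
Pgk1: gcgtcgtgcaggACGTGacaaatggaagt
Slc2a1: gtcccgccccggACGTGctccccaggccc

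Per base of exon, Pgk1, Ldha and Aldoa stood far above the rest of the set in both genotypes. Divided by merged exon length, the level of Pgk1 averaged 181 ± 41.4 CPM per kb in KO and 178 ± 20.2 in WT (SD, n = 3 each). Ldha averaged 177 ± 62.8 in KO and 169 ± 22.8 in WT, and Aldoa 171 ± 12.4 in KO and 162 ± 32.4 in WT. On this scale these 3 levels did not differ beyond their spread in either genotype. Bnip3 followed with 56.0 ± 27.1 CPM per kb in KO and 65.8 ± 7.39 in WT, and Vegfa with 22.7 ± 9.62 in KO and 22.6 ± 2.72 in WT. Pfkl, Ero1l, Slc2a1 and Pfkp lay close together, between 11.9 and 15.5 CPM per kb in KO and between 12.8 and 17.0 in WT. Hk2 was lowest with 5.29 ± 1.04 CPM per kb in KO and 5.65 ± 0.792 in WT. The order depends on the length used, since merged exons of Pfkp cover 13401 bases and its longest coding transcript 4145. Per kb of that transcript, an alternative added after seeing the data, Pfkp averaged 38.6 ± 6.76 CPM in KO and 53.2 ± 1.14 in WT, above Pfkl with 27.7 ± 9.49 in KO and 30.4 ± 6.19 in WT and above Vegfa. Pgk1 then averaged 222 ± 50.9 in KO and 218 ± 24.9 in WT, and Aldoa 321 ± 23.4 in KO and 304 ± 60.9 in WT. Pgk1 reads are the least certain of these: 67.5% of the 75-base stretches of its transcript also occur in transcripts of 4 other genes, Pgk1-rs7 among them. That share was 15.3% for Bnip3, 5.23% for Ldha and 1.49% for Aldoa, and 0 for the other 6 genes.

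**Figure D1:**
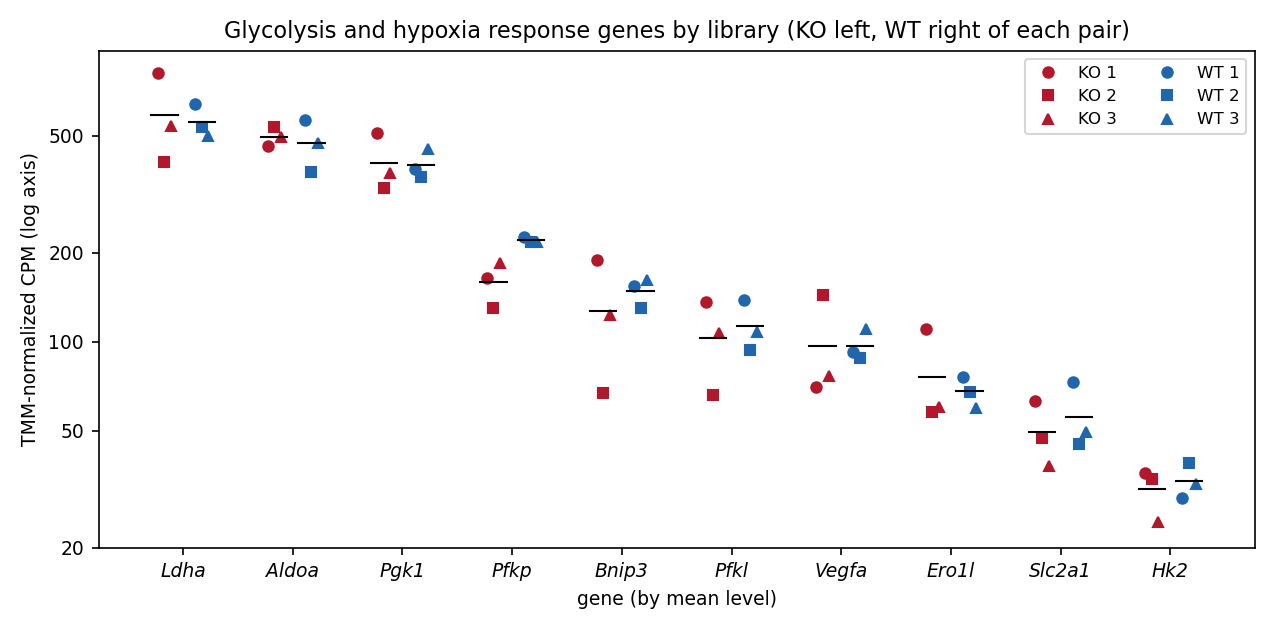
TMM-normalized CPM (log axis) of the 10 genes in each library, KO in red to the left and WT in blue to the right of each pair, with the mean as a bar. The KO and WT points overlap for every gene but Pfkp, whose 3 KO libraries lie at 129.8 to 185 CPM and its 3 WT libraries at 218 to 226 CPM.

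The levels of Slc2a1 and Hk2, which act at the entry of glucose, overlapped between genotypes. Those of Hk1, a hexokinase gene outside the set, did not and are given below with the isozymes. Slc2a1 (chr4:119108711-119137983, mm10) encodes GLUT1, the transporter that brings glucose into the cell. Its level was 63.0, 47.0 and 37.9 CPM in KO 1 to KO 3, against 72.9, 44.9 and 49.2 CPM in WT 1 to WT 3. WT 1 was the highest and KO 3 the lowest of overlapping values, and the log2 fold change was −0.17 (SE 0.28, adjusted p = 0.833 by limma). Hk2 (chr6:82725025-82774454) encodes hexokinase 2, which traps glucose as glucose 6-phosphate. It had 35.9, 34.3 and 24.5 CPM in KO, against 29.5, 38.9 and 32.8 CPM in WT. KO 3 was the lowest of the 6 libraries, and the log2 fold change was −0.11 (SE 0.26, adjusted p = 0.898 by limma). These are the thinnest counts of the set, 40 to 94 reads per library for Hk2 and 59 to 165 for Slc2a1.

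Phosphofructokinase commits glucose to glycolysis, and of its genes Pfkp was lower in each KO library. Pfkp (chr13:6579768-6648777), the platelet-type isozyme, had 164, 129.8 and 185 CPM in KO, against 226, 218 and 218 CPM in WT. The highest KO library lay below the lowest WT library, and the WT libraries were nearly level. The log2 fold change was −0.48 (SE 0.19, 95% interval −0.91 to −0.05), a mean 28.3% lower. The unadjusted limma p was 0.0319 and the adjusted p over all genes 0.403, so the difference did not pass. Exons of Pfkp share 748 bases with Pitrm1, which encodes a mitochondrial protease, on the opposite strand. Pitrm1 had 33.6, 34.3 and 38.5 CPM in KO, against 52.8, 39.6 and 48.7 CPM in WT, also with no overlap, and its part in the Pfkp difference was not tested. Pfkl (chr10:77986947-78010083), the liver-type isozyme, had 137, 66.1 and 107 CPM in KO, against 139, 93.7 and 108 CPM in WT. Only KO 2 lay outside the WT range, and the log2 fold change was −0.18 (SE 0.29, adjusted p = 0.832 by limma). Without KO 2 it was 0.11.

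The later steps of the pathway were level between genotypes on average, with KO libraries on both sides of WT for Pgk1 and Ldha. Aldoa (chr7:126795234-126800751), whose aldolase splits the phosphorylated sugar, had 461, 533 and 496 CPM in KO, against 564, 376 and 471 CPM in WT. The KO values lay within the WT range, and the log2 fold change was 0.10 (SE 0.20, 95% interval −0.35 to 0.54, adjusted p = 0.874 by limma). Pgk1 (chrX:106187100-106203699) encodes phosphoglycerate kinase 1, which makes the first ATP of the pathway. It had 509.9, 332 and 374 CPM in KO, against 386, 361 and 449 CPM in WT, with a log2 fold change of 0.01 (SE 0.21, 95% interval −0.46 to 0.48, adjusted p = 0.992 by limma). Its highest and lowest values were both in KO libraries. Ldha (chr7:46841475-46855627) encodes the subunit of lactate dehydrogenase that favours lactate formation. It had 814, 407 and 539 CPM in KO, against 643, 533 and 498 CPM in WT, with a log2 fold change of 0.02 (SE 0.26, 95% interval −0.56 to 0.61, adjusted p = 0.978 by limma). KO 1 was again the highest and KO 2 the lowest of the 6 libraries.

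The hypoxia response genes outside glycolysis differed more among KO libraries than between genotypes. Bnip3 (chr7:138890836-138909519), a mitophagy receptor of the outer mitochondrial membrane, had 189.7 CPM in KO 1, 67.1 in KO 2 and 124 in KO 3, against 155, 130.3 and 162 CPM in WT 1 to WT 3. The highest and the lowest library were both KO. The log2 fold change was −0.35 (SE 0.34, 95% interval −1.11 to 0.41, adjusted p = 0.697 by limma), and 0.04 without KO 2. Its exons share 504 bases with the antisense gene Gm45507, which has no row in the table. Ero1l (chr14:45283087-45318771) encodes the oxidase that recharges protein disulfide isomerase in the endoplasmic reticulum. It had 110.3, 57.8 and 59.9 CPM in KO, against 76.0, 67.8 and 59.8 CPM in WT, with KO 1 above and KO 2 below all WT libraries. The log2 fold change was 0.10 (SE 0.28, adjusted p = 0.904 by limma), and −0.20 without KO 1. Vegfa (chr17:46016993-46032369) encodes the main growth factor for blood vessels. It had 70.2, 145 and 76.5 CPM in KO, against 92.4, 88.4 and 110.2 CPM in WT, so that KO 2 was the highest library and the other KO libraries the lowest. The log2 fold change was −0.07 (SE 0.28, adjusted p = 0.940 by limma), and −0.40 without KO 2.

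**Figure D2:**
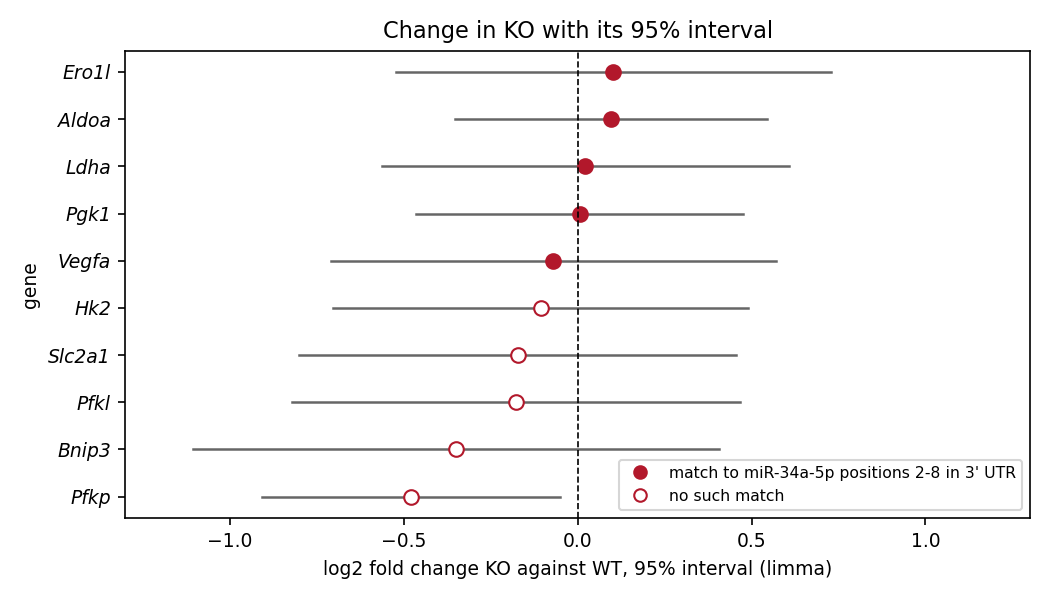
Log2 fold change KO against WT of each gene (point) with its 95% interval from limma (line), ordered by size. Filled points are the 5 genes with a match to miR-34a-5p positions 2 to 8 in the 3′ UTR, which lie between −0.07 and 0.10, and open points are the 5 genes without one, which lie between −0.48 and −0.11. This division did not hold when KO 2 was left out.

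Across the set, 4 genes had higher and 6 lower means in KO, with a median log2 fold change of −0.09 beside 0.02 over all genes. Limma called 0 of the 10 at an adjusted p below 0.05 in either direction, where it called 0% of all genes higher and 0.00981% lower. The quasi-likelihood test of edgeR, DESeq2 and limma-voom on the recovered reads also called 0 of the 10. At an unadjusted limma p below 0.05, 0 of the 10 were higher, against 4.64% of all genes. Pfkp was the 1 gene lower at that level, against 6.4% of all genes. It was also the 1 gene whose KO libraries all lay below WT, as did 9.57% of all genes, and 0 of the 10 had KO libraries all above WT, as did 8.82%. These shares of the 10 were close to the background. Proliferation genes did separate the same libraries as a sum. The 12 measured of 12 summed to 876.5 to 1256 CPM in KO and 1656 to 1944 CPM in WT. The 3 measured neutrophil markers of 10 summed to 3.05 to 5.51 CPM in KO and 76.2 to 87.3 CPM in WT. Each row's second-highest value was at least 7.35 CPM, so these 3 could have a row only through WT. Their separation is therefore built in and is no result. The part of both groups in the Pfkp difference was not tested. The SEs of 0.19 to 0.34 set what could be seen: the 95% intervals of 9 genes lay within a change of 2-fold in either direction, and that of Bnip3 reached −1.11.

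None of the genes with a seed match passed a test in either direction. The 5 with a match to positions 2 to 8 (Aldoa, Pgk1, Ldha, Vegfa and Ero1l, printed above) had log2 fold changes of −0.07 to 0.10, with a median of 0.02. The 5 without such a match had −0.48 to −0.11, with a median of −0.18. Every gene with a match thus ranked above every gene without one, while each of the 5 matched genes lay within its own SE of 0. Over all genes the median was 0.04 for the 1809 with a match and 0.03 for the 5820 with no match even to positions 2 to 7. The order within the 10 was seen after the values and carries no test. It failed, for example, without KO 2, where Vegfa was at −0.40, Pfkl at 0.11 and Bnip3 at 0.04. It also failed without KO 1, where Ldha was at −0.24 and Hk2 at −0.21. Opposite-strand genes did not divide the set in this way. The 4 genes that share exon bases with a gene on the other strand (Slc2a1, Pfkp, Aldoa and Bnip3) ranged from −0.48 to 0.10 with a median of −0.26, and the 6 that share none from −0.18 to 0.10 with a median of −0.03.

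**Figure D3:**
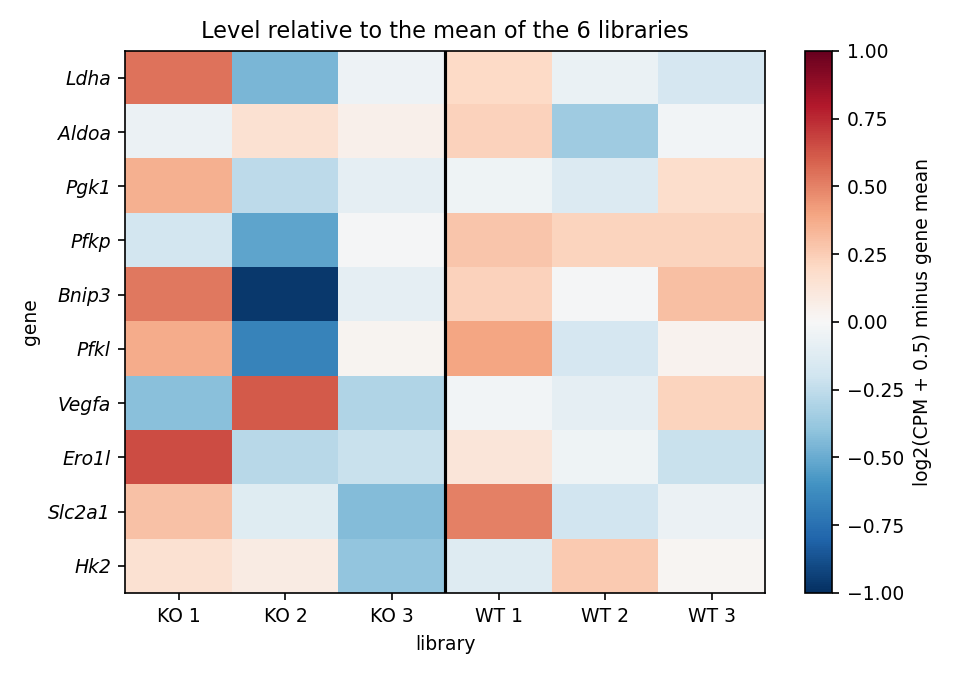
Level of each gene in each library as log2(CPM + 0.5) minus the gene's mean over the 6 libraries, with red above and blue below that mean and the KO libraries to the left. KO 1 is red and KO 2 blue for Ldha, Pgk1, Bnip3, Pfkl and Ero1l, and Vegfa shows the opposite colours.

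The widest contrast in the set lay between KO libraries. KO 1 was the highest KO library for 7 of the 10 genes, against 33.8% of all genes, and KO 2 the lowest for 6 of the 10, against 37.0% of all genes. WT libraries had an order too: WT 1 was the highest WT library for 6 of the 10 (33.6% of all genes) and WT 2 the lowest for 7 (34.2% of all genes). KO 1 and WT 1 were each the highest of the 6 libraries for 4 genes, and KO 2 was the lowest of the 6 for 6 genes. KO 1 exceeded KO 2 by 2.83-fold for Bnip3, 2.07-fold for Pfkl, 2.00-fold for Ldha, 1.91-fold for Ero1l and 1.53-fold for Pgk1. Vegfa ran the other way, with a ratio of 0.486. The SD of the log2 values was larger in KO than in WT for 8 of the 10 genes, as it was for 54.7% of all genes, and its median over the 10 was 0.43 in KO and 0.18 in WT. Over all genes that median was 0.39 in KO and 0.34 in WT. By mean level the 10 ranked from 151 (Ldha) to 4271 (Hk2) among the 10189 genes. Spread was not compared at equal level, so these medians do not show in which genotype the 10 departed from all genes. Markers of other cells differed between the same libraries. The macrophage gene Lyz2 (lysozyme) stood at 594 CPM in KO 1, 12165 in KO 2 and 1757 in KO 3, against 4139, 3326 and 3649 CPM in WT. Of 7 endothelial markers only 2, Pecam1 and Cdh5, had a row. They had 30.4 and 13.2 CPM in KO 2 and 0 reads in KO 1 and KO 3. Both were detected in each WT library, and they could have a row only through KO 2 and WT. Of the 15 measured chondrocyte markers, 13 had higher and 2 lower means in KO (51.4% and 48.6% of all genes). The 15 summed to 7015, 3864 and 4092 CPM in KO, against 3880.0, 2839 and 2540 CPM in WT. KO 1 was thus far the highest and KO 2 the lowest KO library in that sum. The sum weighs abundant markers most. As log2(CPM + 0.5) minus each marker's mean over the 6 libraries, the markers averaged 0.89 in KO 1, 0.09 in KO 2 and 0.04 in KO 3. On that scale KO 3 was the lowest KO library. The part of all these markers in the spread of the 10 genes was not tested.

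Isozyme ratios, taken after adding 0.5 CPM to each gene, separated the genotypes for 2 of 5 measured pairs without passing a test. An exact two-sided permutation test of 3 against 3 cannot go below p = 0.1, and p-values were adjusted over the 5 pairs. As single genes, Hk1 and Pfkm lay higher and Pfkp lower in each KO library than in each WT library, while Hk2 overlapped. Of all genes, 8.82% lay higher in this way and 9.57% lower. The log2 ratio per exon length of Hk2 to Hk1, the widely expressed hexokinase, was −0.47, −0.87 and −1.11 in KO, against −0.11, −0.09 and −0.46 in WT. The difference was −0.60 (exact p = 0.1, adjusted 0.25), with a narrow gap between KO 1 and WT 3. Hk1 itself had 71.8, 90.1 and 76.5 CPM in KO, against 45.9, 59.4 and 65.1 CPM in WT, and 157 of its exon bases lie opposite Hk1os. The ratio of Pfkp to the muscle-type gene Pfkm was −0.23, 0.05 and 0.72 in KO, against 4.57, 1.32 and 1.54 in WT, a difference of −2.29 (exact p = 0.1, adjusted 0.25). WT 1, where Pfkm had 3 reads, sets much of its size, and without it the difference was −1.25. Of the summed phosphofructokinase signal per exon length, Pfkp made up 26.1%, 33.6% and 36.3% in KO, against 44.1%, 44.3% and 43.0% in WT. By transcript length the Pfkp shares were 42.7%, 52.4% and 53.9% in KO, against 59.0%, 61.8% and 59.9% in WT. The level of these shares thus rests on the length chosen, and they were lower in each KO library with both lengths.

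**Figure D4:**
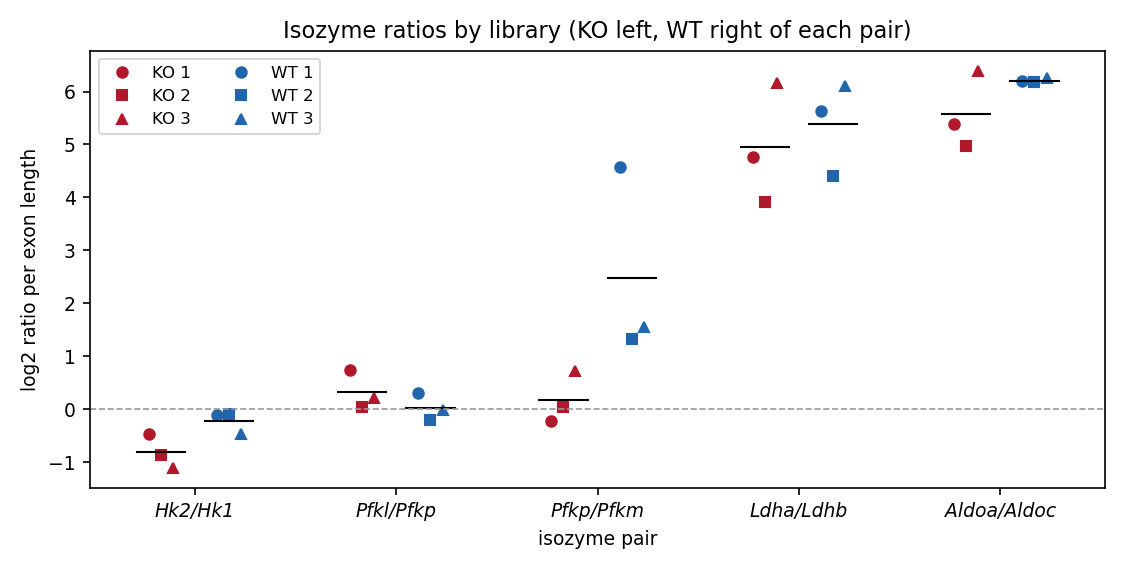
Log2 ratio of the exon-length-scaled levels of 5 isozyme pairs in each library, KO in red to the left and WT in blue to the right, with the mean as a bar and 0 (equal levels) dashed. Hk2/Hk1 and Pfkp/Pfkm lie lower in each KO library than in each WT library, and the other pairs overlap.

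The other pairs overlapped between genotypes. Pfkl to Pfkp differed by 0.30 (exact p = 0.4), Ldha to Ldhb by −0.43 (exact p = 0.8) and Aldoa to Aldoc by −0.62 (exact p = 0.4). Ldha made up 94.0% to 98.8% of the lactate dehydrogenase signal per exon length in KO and 95.7% to 98.8% in WT, and Aldoa 97.0% to 98.9% of the sum with Aldoc in KO and 98.7% to 98.8% in WT. Ldhb rested on 5 to 36 reads and Aldoc on 7 to 38 reads per library. Slc2a3, the neuronal glucose transporter gene, has no row in the table.

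Among the other genes of glycolysis, 15 of 23 listed were measured and limma called 0 at an adjusted p below 0.05. Their median log2 fold change was 0.13. At an unadjusted p below 0.05, 1 was higher (Pfkm) and 0 lower, where 4.64% of all genes were higher and 6.4% lower. Pfkm had 47.7, 30.9 and 27.5 CPM in KO, against 1.88, 21.3 and 18.2 CPM in WT, a log2 fold change of 1.82 (SE 0.75, adjusted p = 0.422 by limma) and of 0.79 without WT 1. Pfkfb3, which makes the activator of phosphofructokinase, had 0.60 (SE 0.29), Hk1 0.49 (SE 0.22) and Hk3 0.67 (SE 0.43), none past the test. Pfkfb3 was 0.39 without KO 1, and Hk3 was 0.40 without KO 3 and 1.10 without KO 1. Pkm, the pyruvate kinase gene with the highest CPM of the list, had 1403, 1815 and 1450.4 CPM in KO, against 1547, 1334 and 1316 CPM in WT. Gapdh had only 47.0 to 69.1 CPM in KO and 55.6 to 72.9 CPM in WT, and 80.3% of the 75-base stretches of its transcript also occur in other genes' transcripts.

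Of 16 genes of pyruvate and lactate handling 13 were measured, 0 passed the adjusted threshold, and 0 were higher and 2 lower at an unadjusted p below 0.05 (4.64% and 6.4% of all genes). Slc16a3 encodes MCT4, the transporter that exports lactate. It had 80.5, 75.0 and 71.6 CPM in KO, against 126, 132 and 97.3 CPM in WT, with no overlap (log2 fold change −0.63, SE 0.20, adjusted p = 0.315 by limma). Pdha1, a subunit of pyruvate dehydrogenase, had −0.52 (SE 0.21), and 603 of its exon bases lie opposite Map3k15. Pcx, the pyruvate carboxylase gene, had 0.71 (SE 0.35) and Bsg, the chaperone of lactate transporters, 0.36 (SE 0.21), or 0.23 without KO 1. The list's median was 0.13. In the pentose phosphate pathway, 7 of 8 genes were measured, none passed with either threshold, and the median was 0.40. G6pdx, its first enzyme, had 0.40 (SE 0.21) and 418 exon bases opposite Ikbkg, and Rpe had −0.44 (SE 0.21) and 558 opposite Kansl1l. Pgls had 0.74 (SE 0.43) and H6pd 0.64 (SE 0.47), and H6pd was 0.05 without WT 2. Without KO 2, G6pdx was 0.27 and Rpe −0.25, and Pgls was 0.43 without WT 1.

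The genes of HIF subunits and HIF regulators gave 10 measured of 14, with 0 past the adjusted threshold and 2 higher at an unadjusted p below 0.05, against 4.64% of all genes. Arnt, the partner of HIF-1α, had 21.8, 24.5 and 17.7 CPM in KO, against 4.40, 8.38 and 17.0 CPM in WT (log2 fold change 1.25, SE 0.49, adjusted p = 0.403 by limma), and 0.80 without WT 1. Egln2, a prolyl hydroxylase gene, had 0.74 (SE 0.32), the HIF coactivator competitor Cited2 0.62 (SE 0.34) and Vhl, which marks HIF-1α for destruction, −0.72 (SE 0.47). Cited2 ranged from 0.35 without KO 1 to 0.97 without KO 2, with 0.39 without WT 2, and Vhl from −1.14 without WT 1 to −0.45 without WT 2. Hif1a had 547, 857 and 387 CPM in KO, against 521, 453 and 641 CPM in WT, a log2 fold change of 0.09 (SE 0.29). HIF-1 is regulated mainly through protein stability, which RNA levels do not show. The list's median was 0.26.

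Of 38 further hypoxia-induced genes 34 were measured, 20 with higher and 14 with lower means in KO (51.4% and 48.6% of all genes). The list's median was 0.14. Limma called 0 at an adjusted p, and 0 were higher and 2 lower at an unadjusted p below 0.05 (4.64% and 6.4% of all genes). Loxl2, a collagen crosslinking enzyme, had 77.5, 122 and 93.6 CPM in KO, against 184, 152 and 169 CPM in WT (log2 fold change −0.80, SE 0.22, adjusted p = 0.281 by limma), and 301 of its exon bases lie opposite Gm27177. It lay lower in each KO library. The demethylase gene Kdm4c had 2.59 (SE 1.19), with 0 reads in WT 2 and 0.92 without that library, and Ppp1r3c, a glycogen-targeting subunit of protein phosphatase 1, had 0.86 (SE 0.43) and 0.42 without WT 2.

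None of the measured partners of Vegfa, Bnip3 and Ero1l passed the adjusted threshold. Of 10 listed names of the VEGF family 3 were measured, with log2 fold changes of 0.44 (SE 0.22) for the co-receptor gene Nrp2, 0.01 (SE 0.20) for Nrp1 and −0.10 (SE 0.54) for Vegfb. Nrp2 was 0.23 without WT 3, and with 1 library left out Nrp1 ranged from −0.11 (without WT 3) to 0.14 (without KO 1) and Vegfb from −0.59 (without WT 3) to 0.26 (without WT 1). Of 8 names of mitophagy genes 6 were measured, 1 higher and 1 lower at an unadjusted p below 0.05 (4.64% and 6.4% of all genes). Pink1, a kinase that marks damaged mitochondria, had 42.4, 42.6 and 31.8 CPM in KO, against 20.7, 26.7 and 25.2 CPM in WT (log2 fold change 0.67, SE 0.26), and Bcl2l13 had −0.86 (SE 0.37), with 628 exon bases opposite Bid. Bnip3l, the closest relative of Bnip3, had 0.16 (SE 0.20), and Phb2 −0.39 (SE 0.37). Without KO 1, Bcl2l13 was −0.52, Bnip3l 0.088 and Phb2 −0.18. Phb2 was −0.76 without WT 3, and Bnip3l 0.28 without KO 3. Of 11 names of disulfide formation in the endoplasmic reticulum 10 were measured, with 2 higher and 0 lower at that level (4.64% and 6.4% of all genes). Gpx8, a peroxidase of that compartment, had 184, 107 and 127 CPM in KO, against 73.5, 95.2 and 66.8 CPM in WT (log2 fold change 0.80, SE 0.25, adjusted p = 0.305 by limma). Qsox1, a sulfhydryl oxidase gene, had 0.74 (SE 0.25), Pdia4 0.24 (SE 0.19) and Ero1lb, the paralog of Ero1l, −0.59 (SE 0.45), which ranged from −0.95 without KO 3 to −0.04 with KO 1 left out. Pdia4 was 0.13 without WT 3. Among the list genes named here with an unadjusted p below 0.05, those of Slc16a3, Loxl2 and Gpx8 stayed below it without each library in turn. Those of Pfkm, Pdha1, Arnt, Egln2, Pink1, Bcl2l13 and Qsox1 did not.

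Over the 6 libraries, the genes most like the mean of the 10 were sought among 6105 other genes with a mean of at least 20 CPM. Ppp4r1 (Pearson r = 0.996), Kat2b (0.990), Cnpy2 (0.985), Ptprf (0.982), Magt1 (0.973) and Uggt2 (0.973) ranked first. With 6 libraries and this many genes such values describe the ranking and carry no p. Uggt2 had 44.3, 13.7 and 17.1 CPM in KO, against 33.9, 22.9 and 34.6 CPM in WT, and showed the high KO 1 and low KO 2 of the set.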

How the data were processed

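RNA-seq of total RNA from 3 KO and 3 WT chondrocyte samples was used. Per the labels, libraries came from a stranded total RNA kit with 75 cycles per end. The tools listed, without roles, in the submitters' processing notes are HISAT2 2.1.0, cutadapt 1.18, StringTie 1.3.5, edgeR and bcl2fastq, with the build mm10. The sources used here do not give the annotation, strand setting or row filter. The deposited signal, made by the authors, is TMM-normalized CPM per its table name. 100% of values were whole multiples of 1 step per library (tolerance 0.001 reads), so reads were recovered. The lowest second-highest value of a row was 7.35 CPM. Of the columns, 5 of 6 carried a sample's title, and that of KO 3 differed by 1 character.

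All 10189 genes were fitted with limma 3.58.1 (R 4.3.3, trend, log2(CPM + 0.5), genotype only, two-sided) with Benjamini-Hochberg adjustment. Recovered reads were tested with edgeR 4.0.16, DESeq2 1.42.0 and limma-voom at the authors' library sizes. The genes and lists were chosen with earlier results of these data known. Named genes were the 10, up to 4 of smallest p per list (1 of them is not reported here), their isozymes, 6 by likeness and library checks. Pkm, Gapdh, Hif1a, Pitrm1, Pecam1 and Cdh5 were added after their values were seen. Of the table's symbols, 96.3% matched GENCODE M21. No 2 libraries of 1 genotype agreed within sampling noise (chi-square per degree of freedom at least 10.5). Same-numbered libraries did not deviate together (r of −0.06 to 0.07), so numbers were not taken as pairs. Python 3.11.15, pandas 2.3.3 and matplotlib 3.10.9 served for the rest.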

Additional observations from a re-analysis of the deposited data

How the results depend on the processing

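The limma counts of all genes, 0 higher and 1 lower, were 0 and 2 with a pseudocount of 2, 7 and 3 with no trend, 1 and 3 with robust empirical Bayes, 0 and 2 with edgeR, 26 and 102 with DESeq2, 0 and 0 with the replicate block, and 0 and 2 without WT 1 and KO 2 together. With 1 library left out they ranged from 0 to 7 higher and from 0 to 25 lower. They were 7 and 25 without KO 2, 0 and 4 without KO 1, 0 and 3 without KO 3, 0 and 0 without WT 1, 3 and 1 without WT 2, and 1 and 2 without WT 3. None of the 19 alternatives to the fit called any of the 10 genes at an adjusted p below 0.05. Under the replicate block the adjusted p of Pfkp was 0.439, against 0.403 without it. The log2 fold change of Pfkp kept its sign in all 19, between −0.59 and −0.32, but its unadjusted p missed 0.05 with quantile scaling, with scaling to the total without 3 abundant genes, with no trend, and without WT 1 and KO 2 together (0 genes lower each). With 1 library left out, 0 to 2 of the 10 were lower at that level, and Pfkp missed it without KO 2, WT 1, WT 2 or WT 3. Leaving out 1 library turned the sign of the other 9, which ranged from −0.36 to 0.036 for Slc2a1, −0.21 to 0.064 for Hk2, −0.41 to 0.11 for Pfkl, −0.057 to 0.24 for Aldoa, −0.17 to 0.14 for Pgk1, −0.24 to 0.26 for Ldha, −0.40 to 0.12 for Vegfa, −0.70 to 0.045 for Bnip3 and −0.20 to 0.27 for Ero1l. Without WT 1 and KO 2 together, Slc2a1 was 0.055, Hk2 −0.27, Pfkl 0.27, Ldha 0.36, Vegfa −0.43, Bnip3 0.074 and Ero1l 0.35. The Ldha to Ldhb ratio ranged from −1.04 to 0.083 with 1 library left out, the last without KO 2. Promoter cores with a required flanking base were found in 4 of the 10 genes, against 10 without it. The cause of these changes was not tested. No setting shifted the median of all genes by over 0.08. Depth limits Hk2 and Slc2a1 most, with 40 to 165 reads per library.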
